A study of Mus musculus with 4 samples.

Results

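The genes described here are 9 transcription and chromatin factors of the formative and primed states of mouse pluripotency: Otx2, Pou3f1, Lef1, Zic2, Zic5, Sox3, Sall2, Tcf15 and Utf1. They were taken by name from a table of 50600 genes, and all 9 reached the mean value of 1 required for testing, as did 11231 genes in all. RNA-seq had been run on 2 libraries of Myh9 KO cells and 2 libraries of WT cells of OG2ES, a mouse embryonic stem (ES) cell line. Both groups were labelled as of inner cell mass origin and were grown in ES medium with 2i, with no other treatment. The labels name no clone, guide or allele for the Myh9 KO cells, so that a trait of the KO line cannot be told apart from the loss of Myh9, a gene for a non-muscle myosin II heavy chain. They do not say that the libraries of a group came from separate cultures, so p-values measure only the spread between these libraries.

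Naive ES cells resemble the preimplantation epiblast. When they leave that state they pass through a formative stage, at which the cells become competent for germ layer and germ cell fates, and then a primed stage that resembles the epiblast before gastrulation. OTX2 and POU3F1 are switched on early in this transition and bring OCT4 to new enhancers, while the ZIC, SOX and SALL proteins act on enhancers of developmental genes. The 2i medium holds cells in the naive state by blocking MEK, which relays FGF signals, and GSK3, whose block stabilises beta-catenin, the partner of LEF1.

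None of the 9 genes was called higher or lower in Myh9 KO cells. A call needed a Benjamini-Hochberg adjusted p under 0.05, over all tested genes, in each of a pair of limma fits on log2(value + 1): one on the whole numbers as deposited and one with random decimals added. By this rule 10.9% of all tested genes were called, 5.15% higher and 5.79% lower. Among the 9 genes, 1 had an unadjusted p under 0.05 (Otx2), as did 33.2% of all tested genes. By limma on the whole numbers alone 0 of the 9 were called, beside 15.1% of all tested genes, and with random decimals alone 0 were called, beside 23.1%. Their log2 fold changes ran from -0.30 to 0.45 with a median of 0.00, which was also the median over all tested genes. For 8 of the 9 genes the 95% confidence interval of the fold lay within 0.5 to 2, and Pou3f1 was the exception. These intervals leave out the unknown decimals of the values. With those, the ratio of group means could lie from 1 to 2.2 for Otx2, 0.571 to 1.75 for Zic5 and 0.333 to 1.67 for Pou3f1. A fold here is one of (value + 1), which shrinks the change of weakly expressed genes.

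The unit of the values was not stated, so levels are compared within a gene. Listed values are set across genes only to show how coarse whole numbers are for each, apart from ratios of relatives and sums of markers. Those ratios and sums are compared between libraries. The depth behind the values is unknown. The share of genes called was read by value class: 6.53% of genes with a mean value of 1 to under 5, 9.23% of those from 5 to under 30 and 16.2% of those of 30 or more. Of the 9 factors, 5 were in the lowest class (Otx2, Pou3f1, Lef1, Zic5 and Sox3), 3 in the middle class (Zic2, Tcf15 and Sall2) and 1, Utf1, in the highest.

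**Figure D1:**
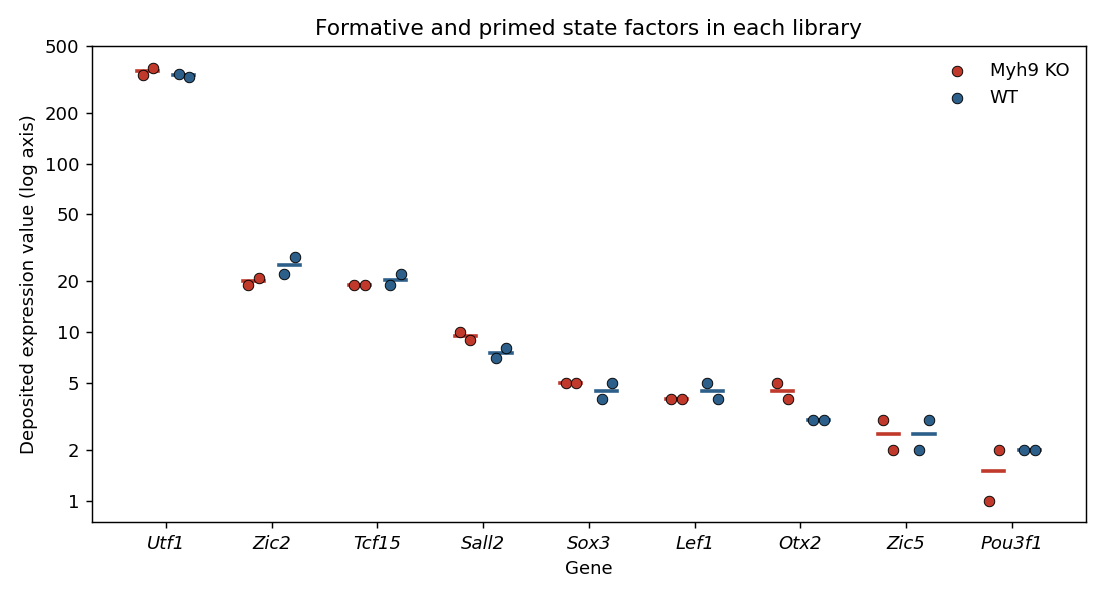
Deposited expression value of each factor in every library, on a log axis; points are libraries and bars are group means, with Myh9 KO left of WT. The libraries of the groups are separated for Otx2, Sall2 and Zic2 and overlap for the other 6 factors.

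As sequence context for 3 of the factors, the RefSeq promoter windows (GRCm38.p6, 250 bases before to 50 bases after a start site) are printed below. Utf1 is shown because its listed values, 327 to 372, are the least affected by missing decimals, and Otx2 and Sall2 were the factors whose Myh9 KO libraries both lay above both WT libraries. Sall2 is shown at both of its listed starts. Capitals mark CG dinucleotides, the sites of DNA methylation. The table held 32851 windows of 300 bases and matched 5 of the 9 factors (Otx2, Lef1, Zic5, Sall2 and Utf1).
Utf1, chr7:139943606-139943905, plus strand: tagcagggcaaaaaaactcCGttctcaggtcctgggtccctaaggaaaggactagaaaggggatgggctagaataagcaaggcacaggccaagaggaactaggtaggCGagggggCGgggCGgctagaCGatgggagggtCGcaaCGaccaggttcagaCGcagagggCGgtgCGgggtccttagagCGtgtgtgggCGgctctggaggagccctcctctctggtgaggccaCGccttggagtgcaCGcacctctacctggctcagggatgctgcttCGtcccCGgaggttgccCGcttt
Otx2, chr14:48667595-48667894, minus strand: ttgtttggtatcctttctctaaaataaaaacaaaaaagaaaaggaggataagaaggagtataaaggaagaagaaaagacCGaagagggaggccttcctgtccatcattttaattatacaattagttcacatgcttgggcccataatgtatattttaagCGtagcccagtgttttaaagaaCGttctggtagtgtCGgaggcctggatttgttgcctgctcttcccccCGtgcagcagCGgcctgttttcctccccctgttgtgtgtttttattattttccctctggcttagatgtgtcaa
Sall2 upstream start, chr14:52328621-52328920, minus strand: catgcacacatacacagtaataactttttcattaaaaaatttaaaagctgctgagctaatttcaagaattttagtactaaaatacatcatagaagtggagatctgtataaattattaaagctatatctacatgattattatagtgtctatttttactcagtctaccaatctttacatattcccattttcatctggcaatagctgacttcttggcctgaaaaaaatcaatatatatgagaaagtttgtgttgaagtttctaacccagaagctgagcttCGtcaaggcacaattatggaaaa
Sall2 downstream start, chr14:52316274-52316573, minus strand: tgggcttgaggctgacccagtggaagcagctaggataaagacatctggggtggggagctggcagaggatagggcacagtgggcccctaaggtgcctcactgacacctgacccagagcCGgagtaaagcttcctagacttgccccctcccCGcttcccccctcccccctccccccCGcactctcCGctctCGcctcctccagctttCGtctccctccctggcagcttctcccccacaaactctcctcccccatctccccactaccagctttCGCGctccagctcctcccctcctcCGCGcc

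These windows differed in base composition. The Utf1 window held 17 CG dinucleotides and a GC content of 62%, and 31.4% of all windows held at least as many CGs. It also held 4 matches, overlapping ones included, to GGGCGG or its complement CCGCCC, the GC box bound by SP1-type factors, a word found at least once in 35.7% of all windows. The Otx2 window, whose start equals the deposited gene start, held 6 CGs at 41.7% GC, close to the median of 7 CGs over all windows, and no GC box. RefSeq lists 3 further Otx2 starts, whose windows held 8, 16 and 11 CGs at 47.7%, 51% and 53.7% GC, also with no GC box. At Sall2 the upstream window had 1 CG at 30.3% GC, a count reached by 94.6% of all windows, and the downstream window had 10 CGs at 65% GC. Neither Sall2 window held a GC box, and expression from the separate starts was not resolved by the gene-level values.

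Utf1 codes for a chromatin-bound protein that is a direct target of OCT4 and SOX2 in ES cells and is carried on into the formative state. Utf1 (ENSMUSG00000047751, mm10 chr7:139943789-139945112) had values of 335 and 372 in the Myh9 KO libraries, against 342 and 327 in the WT libraries. The groups overlapped, with the highest value in Myh9 KO 2 and the lowest in WT 2. The log2 fold change was 0.08 (SE 0.07, limma adjusted p = 0.498), and the 95% interval of the fold ran from 0.887 to 1.26. With genes of like GC content centred on each other the log2 fold change was -0.03, so its sign was not stable.

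Otx2 codes for a homeodomain protein that drives the exit from the naive state and positions the later forebrain. Otx2 (ENSMUSG00000021848, mm10 chr14:48657679-48667644) had values of 5 and 4 in Myh9 KO, against 3 and 3 in WT. Both Myh9 KO libraries were above both WT libraries, by 1 unit at the closest. It had the largest positive log2 fold change of the 9 factors, 0.45 (SE 0.12, fold interval 1.03 to 1.81), with an unadjusted limma p of 0.0385 and an adjusted p of 0.128, or 0.222 with random decimals. Since the deposited numbers carry no decimals, the ratio of group means, 1.5 as listed, could lie anywhere from 1 to 2.2. The antisense transcript Otx2os1, which shares 154 exonic bases with Otx2, was listed at 0 in every library. Of the 50-base words of Otx2 (runs of 50 bases in its transcripts), 2.75% also occur in other genes.

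Pou3f1 codes for OCT6, a POU factor of the epiblast that promotes neural fate. Pou3f1 (ENSMUSG00000090125, mm10 chr4:124656807-124660655) had values of 1 and 2 in Myh9 KO, against 2 and 2 in WT. Myh9 KO 1 alone differed from the rest. Its log2 fold change was -0.29 (SE 0.26, adjusted p = 0.489) and the interval of the fold, from 0.44 to 1.52, was among the widest here. Its relatives Pou3f2, Pou3f3 and Pou3f4 were listed at 0 in every library. For Pou3f1 7.42% of the 50-base words also occur in other genes. It shares 330 exonic bases with Gm2164, which is on the opposite strand and was listed at 0 in every library.

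Lef1 codes for an HMG-box protein that binds beta-catenin and switches on WNT targets. Lef1 (ENSMUSG00000027985, mm10 chr3:131110471-131224356) had values of 4 and 4 in Myh9 KO, against 5 and 4 in WT. The groups shared the value 4. For Lef1 the log2 fold change was -0.13 (SE 0.12, adjusted p = 0.489), with a fold interval of 0.689 to 1.21. Of its 50-base words, 13.7% also occur in other genes. Lef1 shares 1208 exonic bases with Gm43352, which is on the opposite strand and was listed at 0 in every library.

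Zic2 and Zic5 code for zinc finger proteins and are neighbours on chromosome 14, on opposite strands and 9757 bases apart. ZIC2 binds enhancers in mouse ES cells and is required for forebrain formation. Zic2 (ENSMUSG00000061524, mm10 chr14:122475435-122479852) had values of 19 and 21 in Myh9 KO, against 22 and 28 in WT. Both Myh9 KO libraries were below both WT libraries, though WT 1 lay within 1 unit of Myh9 KO 2. The log2 fold change was -0.30 (SE 0.16, adjusted p = 0.333; 0.137 with random decimals), and the fold interval was 0.553 to 1.19. It was -0.13 without WT 2 and -0.47 without WT 1. Zic5 (ENSMUSG00000041703, mm10 chr14:122456795-122465677) had values of 3 and 2 in Myh9 KO, against 2 and 3 in WT. The same values occurred in both groups, so the log2 fold change was 0.00 (SE 0.26, adjusted p = 1), with an interval from 0.538 to 1.86. Other genes hold 7.48% of the 50-base words of Zic5.

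Sox3 is an X-linked gene of the SOXB1 group, whose protein can stand in for SOX2 in ES cells and marks neural progenitors. Sox3 (ENSMUSG00000045179, mm10 chrX:60891366-60893430) had values of 5 and 5 in Myh9 KO, against 4 and 5 in WT. WT 2 equalled both Myh9 KO libraries. For Sox3 the log2 fold change was 0.13 (SE 0.12, adjusted p = 0.489), with a fold interval of 0.827 to 1.45.

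Sall2 codes for a spalt-type zinc finger protein. Sall2 (ENSMUSG00000049532, mm10 chr14:52311172-52328762) had values of 10 and 9 in Myh9 KO, against 7 and 8 in WT. The groups did not overlap and were 1 unit apart at the closest. The log2 fold change was 0.31 (SE 0.10, adjusted p = 0.174; 0.221 with random decimals), with a fold interval of 0.976 to 1.57.

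Tcf15 codes for a basic helix-loop-helix protein of the paraxial mesoderm that in mouse ES cells responds to FGF and primes cells for differentiation. Tcf15 (ENSMUSG00000068079, mm10 chr2:152143561-152149097) had values of 19 and 19 in Myh9 KO, against 19 and 22 in WT. WT 1 equalled both Myh9 KO libraries. For Tcf15 the log2 fold change was -0.10 (SE 0.09, adjusted p = 0.489), with a fold interval of 0.75 to 1.16.

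**Figure D2:**
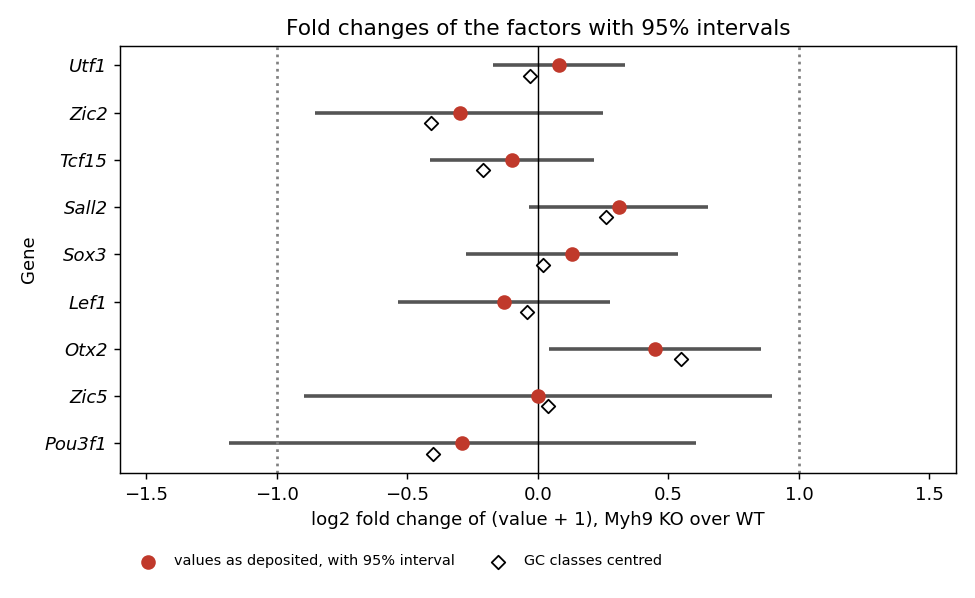
log2 fold change of (value + 1), Myh9 KO over WT, for each factor; filled points are the deposited values with 95% limma intervals, open diamonds the change with GC classes centred, and dotted lines mark a 2-fold change. The Otx2 interval, 1.03 to 1.81 as a fold, is the one that lies wholly on one side of 0, and the Pou3f1 interval is the one that crosses a dotted line.

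Counted by the order of the libraries, 2 factors (Otx2 and Sall2) had both Myh9 KO libraries above both WT libraries, 1 (Zic2) had both below, and 6 overlapped. Over all tested genes, 26.2% were separated with Myh9 KO higher and 27.3% with Myh9 KO lower. An exact permutation test of a single gene in 2 against 2 libraries cannot give a two-sided p below 0.333.

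GC content moved with the comparison over all genes. In the 2244 tested genes with the highest GC content (56.1% to 76.3%) the median log2 fold change was 0.11, and in the 2244 with the lowest (31% to 45%) it was -0.15. The factors had transcripts of 46.1% to 66.4% GC. Pou3f1, Zic2, Sox3, Tcf15 and Utf1 lay in the GC-richest of these classes, and none lay in the GC-poorest. The part of GC content in the values above was not tested beyond the centring that follows. After centring of 20 GC classes the log2 fold changes were 0.55 for Otx2, 0.26 for Sall2, 0.04 for Zic5, 0.02 for Sox3, -0.03 for Utf1, -0.04 for Lef1, -0.21 for Tcf15, -0.40 for Pou3f1 and -0.41 for Zic2. None of the 9 was called there by both fits, although Zic2 passed with random decimals (adjusted p = 0.0342, against 0.0651 on whole numbers).

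The closest relatives of the factors were examined as a second list of 17 genes, of which 8 reached the filter. Of these, 0 were called higher, 2 were called lower and 6 were not called, with a median log2 fold change of -0.08. Over all tested genes, 5.15% were called higher and 5.79% lower. Sall3, another spalt gene, fell to 4 and 4 in Myh9 KO, against 8 and 8 in WT (log2 fold change -0.85, SE 0.02, adjusted p = 0.0031; 0.0101 with random decimals). Sox2, the SOXB1 partner of OCT4, fell to 126 and 121 in Myh9 KO, against 177 and 183 in WT (-0.54, SE 0.03, adjusted p = 0.0178). Equal replicates leave the standard error of Sall3 too small, and with decimals unknown the ratio of its group means lies between 0.389 and 0.667. Sall3 missed the random decimals test without WT 1 (adjusted p = 0.0607) or WT 2 (0.0583).

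Within the SALL and SOXB1 families the factor and its called relative could be set against each other inside each library. The log2 ratio of Sall2 to Sall3, from (value + 1), was 1.14 and 1.00 in Myh9 KO, against -0.17 and 0.00 in WT. For Sox3 to Sox2 it was -4.40 and -4.35 in Myh9 KO, against -5.15 and -4.94 in WT. Both ratios were higher in both Myh9 KO libraries than in both WT libraries, with differences of 1.15 and 0.67 on the log2 scale. Sall2 to Sall4, the remaining ratio computed, was -3.90 and -4.13 in Myh9 KO, against -4.70 and -4.51 in WT. In an exact permutation test the two-sided p of each of the 3 ratios was 0.333, the smallest that 4 libraries allow and unchanged by Benjamini-Hochberg adjustment. The pairs were chosen after the lower values of the relatives were seen, so the choice itself favoured higher ratios. The differences restate the log2 fold changes of each factor and its relative and are no separate result on the factor.

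**Figure D3:**
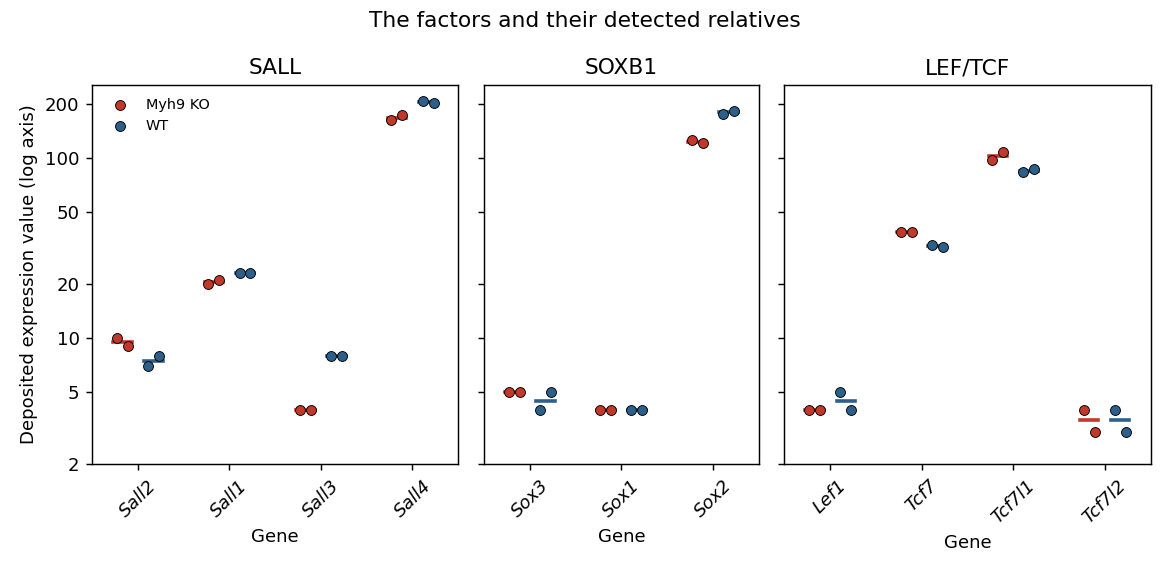
Deposited values, on a log axis, of the factors and of their detected relatives in the SALL, SOXB1 and LEF/TCF families; points are libraries, bars are group means, and Myh9 KO is left of WT. Sall1, Sall3, Sall4 and Sox2 are lower in both Myh9 KO libraries than in both WT libraries. Sall2, Tcf7 and Tcf7l1 are higher in both, while Sox3, Sox1, Lef1 and Tcf7l2 overlap with WT.

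Among the relatives of Lef1, Tcf7 had values of 39 and 39 in Myh9 KO, against 33 and 32 in WT (log2 fold change 0.26, SE 0.02, adjusted p = 0.0303, but 0.0526 with random decimals). Tcf7l1, a repressor of pluripotency genes, had 98 and 108 in Myh9 KO, against 84 and 87 in WT (0.26, SE 0.07, adjusted p = 0.122). Both were therefore not called, and both were chosen for mention after their values were seen. Sall4, which binds with OCT4 and NANOG in ES cells and was likewise chosen afterwards, had 163 and 174 in Myh9 KO, against 207 and 204 in WT (-0.29, SE 0.04, adjusted p = 0.0612; 0.0081 with random decimals). The remaining 9 relatives, such as Otx1, Crx, Zic1 and Zic4, were listed at 0 in every library. Of the other tested relatives, Sall1 had 20 and 21 in Myh9 KO, against 23 and 23 in WT (-0.16, SE 0.03, adjusted p = 0.103), and Sox1 (4 in every library) and Tcf7l2 (4 and 3 in each group) had equal group means.

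A list of 21 other genes of the formative or primed epiblast moved in both directions. Of 15 that were tested, 3 were called higher, 2 lower and 10 not, with a median log2 fold change of 0.00. The shares over all tested genes were 5.15% higher and 5.79% lower. Sox4, a SOXC factor, rose to 4 and 4 in Myh9 KO, against 1 and 1 in WT (log2 fold change 1.32, SE 0.01, adjusted p = 0.000935; 0.0121 with random decimals). However, 54.1% of the 50-base words of Sox4 also occur in other genes, so its value is uncertain. Its exons overlap those of Gm26735, but which genes hold the shared words was not recorded. Fst, which codes for the activin antagonist follistatin, fell to 1 and 1, against 4 and 4 in WT (-1.32, SE 0.01, adjusted p = 0.000935; 0.00937 with random decimals). Both had equal replicates, and with decimals unknown the ratio of group means lies from 1.75 to 10 for Sox4 and from 0.1 to 0.571 for Fst.

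Dnmt3l, a cofactor of the de novo DNA methyltransferases, rose to 618 and 620 in Myh9 KO, against 320 and 336 in WT (0.91, SE 0.03, adjusted p = 0.00614), and its exons overlap those of Aire. Aire itself rose (2.17, SE 0.02, adjusted p = 0.000976), and since no step that keeps strand was described, reads from the overlapping bases cannot be told apart. Only 0.632% of the 50-base words of Dnmt3l, on either strand, occur in another gene. The ETS factor genes Etv4 and Etv5, both induced by FGF and ERK, went in opposite directions. Etv4, named because it was the remaining called gene, rose to 114 and 125, against 79 and 84 in WT (0.55, SE 0.07, adjusted p = 0.0487). Etv5 fell to 233 and 237, against 274 and 280 in WT (-0.24, SE 0.02, adjusted p = 0.0258), and 24.5% of its 50-base words also occur in other genes. Foxd3, a forkhead factor of the exit from naive pluripotency that was chosen after its values were seen, had 26 and 30 in Myh9 KO, against 43 and 48 in WT. It missed the whole-number test (-0.68, SE 0.11, adjusted p = 0.0691) and passed with random decimals (0.00233). So did Dnmt3b, also chosen afterwards, at 75 and 81 in Myh9 KO, against 103 and 111 in WT. Its log2 fold change was -0.45 (SE 0.07, adjusted p = 0.0612; 0.00287 with random decimals). For Dnmt3b 9.81% of the 50-base words also occur in other genes. The primed marker Fgf5 and also Fgf8, Wnt3, Wnt8a and Cer1 were listed at 0 in every library.

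**Figure D4:**
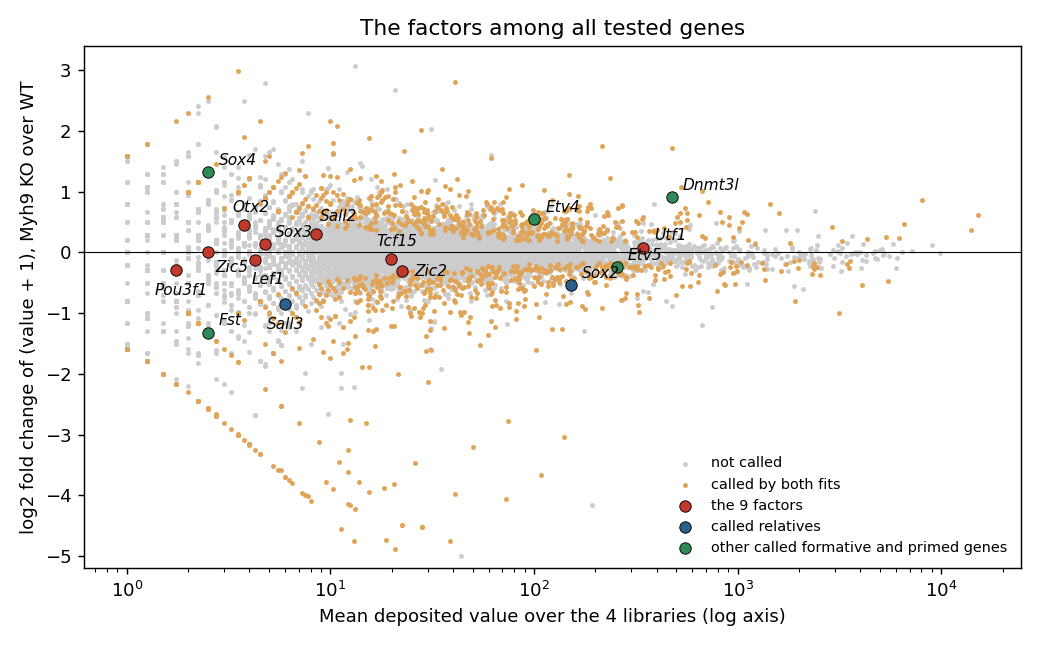
Mean deposited value over the 4 libraries (log axis) against the log2 fold change of (value + 1), Myh9 KO over WT, for the 11231 tested genes; grey dots were not called, orange dots were called by both fits, and large points are the factors (red), called relatives (blue) and other called formative or primed genes (green). The 9 factors lie between -0.30 and 0.45. The marked relatives Sall3 and Sox2 lie at -0.54 or lower and are shown because they were called. Tested relatives that were not called, which are not marked, run from -0.29 (Sall4) to 0.26 (Tcf7 and Tcf7l1).

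Cofactors and chromatin partners of these factors formed a list of 18 genes, all tested, with a median log2 fold change of 0.00. In this list 1 was called higher, 1 lower and 16 were not called, beside 10.9% of all tested genes called in either direction. Bcl9, which links beta-catenin to the transcription machinery, rose to 11 and 11 in Myh9 KO, against 6 and 7 in WT (log2 fold change 0.68, SE 0.09, adjusted p = 0.0482). Ctnnb1, the gene of beta-catenin, fell to 268 and 268, against 316 and 314 in WT (-0.23, SE 0.01, adjusted p = 0.00827), with 12.3% of its 50-base words shared and exons that overlap Ulk4. The median log2 fold change of 12 naive state transcription factors was 0.03, and 1 was called, lower, beside 5.79% of all tested genes. The called gene was Nr0b1, the gene of the nuclear receptor DAX1, at 55 and 53 in Myh9 KO, against 96 and 97 in WT (-0.83, SE 0.03, adjusted p = 0.0052).

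As a check of the labels, Myh9 had values of 9 and 9 in Myh9 KO, against 83 and 100 in WT (log2 fold change -3.20, SE 0.12, adjusted p = 0.00675). The ES cell markers Pou5f1, Nanog, Sox2, Zfp42 and Esrrb were present in every library. Their summed values, mostly from Pou5f1, were 4565 and 4620 in Myh9 KO, against 4476 and 4624 in WT. The sum hides single genes, since Sox2 was called lower and 4 were not called. Zfp42 had 210 and 181 in Myh9 KO, against 140 and 142 in WT, and was not called. Its log2 fold change was 0.46 (SE 0.09, adjusted p = 0.0951, or 0.00314 with random decimals). Of 10 neural and ectoderm markers 7 were at 0 in every library, and the sum was 94 and 90 in Myh9 KO, against 106 and 108 in WT, mostly from Tubb3. Of 10 mesoderm and endoderm markers 6 were at 0 in every library, and the sum was 17 and 19 in Myh9 KO, against 9 and 10 in WT. Eomes, a T-box factor, supplied most of it and rose to 11 and 11, against 6 and 6 in WT. Its log2 fold change was 0.78 (SE 0.02, adjusted p = 0.00406; 0.00821 with random decimals). Equal replicates leave the standard error of Eomes too small, and with decimals unknown the ratio of its group means lies from 1.5 to 2.18. The exons of Eomes overlap those of Gm33460. Gata4, an endoderm factor, had 5 and 5 in Myh9 KO, against 1 and 2 in WT, and was not called (1.29, SE 0.26, adjusted p = 0.092; 0.0089 with random decimals). Of 8 feeder fibroblast markers 6 were at 0 in every library, and the sum was 5 and 7 in Myh9 KO, against 4 and 4 in WT. Fewer cells of a kind and less RNA per cell cannot be told apart in such bulk libraries, and the part of these markers in the results above was not tested.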

How the data were processed

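RNA was extracted with TRIzol, and poly(A) RNA was made into libraries by a kit with random priming, per the labels' protocols, which describe no step that keeps strand. Per the submitters' processing notes the tools included bcl2fastq, RSEM 1.3.0 and Bowtie2 2.2.5 and the builds hg38 and mm10, without their roles. The numbers deposited by the authors carry no named unit and are handled here as a score: whole numbers that summed to between 992098 and 992317 in each of the 4 libraries, as normalized values do once decimals are dropped. The unit, normalization and rounding are not given in the sources used here, and depth is unknown.

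On log2(value + 1), genes with a mean of at least 1 were compared by limma-trend, Myh9 KO against WT (R 4.3.3 with limma 3.58.1), without a replicate block. The second fit added a uniform number between 0 and 1 to each value and took the median adjusted p over 25 draws, because equal whole numbers leave no spread. Transcript GC content and shared 50-base words came from GENCODE vM21 (GRCm38), and promoter windows from RefSeq (GRCm38.p6). Zic2, Sox3, Sall2, Tcf15 and Utf1 had no shared 50-base words. Of the 9 deposited gene coordinates, 8 equal those of GENCODE vM21 and that of Otx2 does not. By rule, named genes were all 9 factors, Myh9 and, from each other list, up to 4 called genes with the smallest p. Etv4, Foxd3, Dnmt3b, Sall4, Tcf7, Tcf7l1, Aire, Eomes, Gata4 and Zfp42 were named outside this rule, after their values were seen. Other relatives and neighbouring genes were named beside the factor concerned. Results on 1 further gene are not reported here. Members and lists were chosen with earlier results of these data known. The alternatives were another pseudocount, other filters, other scalings, GC centring, a replicate block, each fit alone and leaving out each library.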

Additional observations from a re-analysis of the deposited data

How the results depend on the processing

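None of the 9 factors was called by both fits under any of the 13 alternatives run. Of 112 log2 fold changes of the factors under these alternatives 1 changed sign, that of Utf1 with GC classes centred (-0.03). The filters, the replicate block and the whole-number fit alone leave a log2 fold change as it was, so those values could not change sign. Without WT 1 the log2 fold change was 0.00 for Lef1 and Sox3, and without WT 2 for Tcf15. Without Myh9 KO 1 it was 0.00 for Pou3f1, and without Myh9 KO 2 for Utf1. Such a 0.00 was not counted as a changed sign. Zic5, at 0.00, ran from -0.21 to 0.21. On whole numbers alone, equal libraries left in a group of 2 beside a single one gave adjusted p under 0.05 for Otx2 without Myh9 KO 1 (0.0118) or Myh9 KO 2 (0.00755), Pou3f1 without Myh9 KO 2 (0.00408), and Lef1 (0.0278) and Sox3 (0.0286) without WT 2. A lone library is assumed there to vary like the other group. The filter at a mean of 5 left 4 factors. Over all genes the counts of called genes depended on the setting. Against 578 higher and 650 lower, they were 1103 and 1209 with GC classes centred, 1245 and 1346 with random decimals alone, and 10 and 44 with the replicate number as a block. Leaving out 1 library gave 135 (without WT 1) to 336 (without Myh9 KO 1) higher and 194 (without WT 1) to 412 (without Myh9 KO 1) lower. Without WT 2 the counts were 159 and 195, and without Myh9 KO 2 they were 264 and 296. Same-numbered libraries showed little shared deviation (r = 0.0407 over genes). This cannot exclude a pairing, which the labels do not state, because whole numbers blur the differences of weakly expressed genes. Myh9 had log2 fold changes of -3.34 to -3.07 with 1 library left out and -3.20 with the replicate block, and its whole-number adjusted p was 0.0675 without Myh9 KO 1, 0.0709 without Myh9 KO 2 and 0.0723 with the block. The block likewise ended the whole-number calls of Sall3, Sox2, Sox4, Fst, Dnmt3l, Etv4, Etv5, Nr0b1, Ctnnb1 and Bcl9 (0.0507 to 0.127). Sox2 lost its whole-number call with any library left out (adjusted p 0.0696 to 0.109), as did Etv4 (0.116 to 0.224), which also missed it with no filter (0.0515). Etv5 did too (0.102 to 0.116). Dnmt3l lost it without Myh9 KO 1 (0.0631) or Myh9 KO 2 (0.0663), Nr0b1 without WT 1 (0.062) or WT 2 (0.0636), and Bcl9 without Myh9 KO 1 (0.206) or Myh9 KO 2 (0.224). Ctnnb1 missed the random decimals test without WT 1 (0.0747) or WT 2 (0.0651), and Bcl9 without WT 1 (0.0768). Foxd3 was called with a mean filter of 5 (0.0459), with median ratio scaling (0.0311) and with GC classes centred (0.00443). Sall4 was called under the same alternatives (0.0446, 0.0449 and 0.0099), and Tcf7 with the mean filter of 5 (0.0391). Where the cause of such a change is not given by fewer libraries, the cause was not tested. Values of 1 to 5, at which 5 of the factors lie, limit the size of change that whole numbers can show.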

Other observations

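The genes beside the factors had values of their own, and genes with no value are left out here. Kndc1, 2251 bases from Utf1, was listed at 1 and 1 in Myh9 KO, against 0 and 0 in WT. Mettl3, a writer of RNA methylation 6043 bases from Sall2, had 38 and 40 in Myh9 KO, against 33 and 35 in WT, and Tox4, 14770 bases from Sall2, had 31 and 30, against 30 and 31 in WT. Hadh, an enzyme of fatty acid oxidation 9062 bases from Lef1, had 136 and 123 in Myh9 KO, against 121 and 132 in WT. Utp11, 17504 bases from Pou3f1, had 28 and 26 in Myh9 KO, against 27 and 28 in WT. The transcript 2610035F20Rik, 235 bases from Zic2, and Gm14662, 222 bases from Sox3, were listed at 0 in every library.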
